A study of Mus musculus with 4 samples.

Results

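Meninges-like mesenchyme of the embryonic mouse nose was taken as the cells that carry collagen messages together with genes of the coverings of the brain. The study behind the files removed YAP and TAZ, the transcriptional co-activators held in check by the Hippo kinases, with a Sox10-driven Cre. Whole noses were taken at embryonic day 14.5, and their single cells were read by 10x 3-prime droplet sequencing, which counts unique molecular identifiers (UMIs), random tags that each mark 1 captured molecule. The files hold 2 control and 2 mutant libraries. The mutants are labelled as carrying Tg(Sox10-cre)1Wdr with Yapflox and Tazflox alleles on C57Bl/6J, and the series design gives them as Sox10cre with yap flox/WT and taz flox/flox, so that 1 yap allele was not floxed. The controls are labelled C57Bl/6J in the sample labels, whereas the series design gives floxed yap and taz animals without Cre, and the files did not settle which holds. Sox10-Cre acts in the neural crest and its descendants, and is therefore not a deletion in all cells of the nose.

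Members were chosen by marker counts in single cells, over cells with at least 500 genes and at most 10% mitochondrial UMIs. A member had at least 3 UMIs of Col1a1, Col1a2 and Col3a1 together, at least 2 of the 4 markers Slc6a13, Trpm3, Lama1 and Vtn including Slc6a13 or Trpm3, no UMI of Epcam or Cdh5, and fewer than 2 UMIs of Rgs5. This gate held 179 of 13739 retained cells. The controls gave 71 members among 4075 cells (control 1) and 61 among 2474 (control 2), and the mutants gave 26 among 2995 (mutant 1) and 21 among 4195 (mutant 2). Because the gate reads these genes, their levels in members are a description and carry no test. The median depth of members was 8646, 8379, 8867.5 and 7827 UMIs in the same order. Libraries held between 20170229 and 35887490 UMIs. Any 2 libraries shared 3 to 5 cell barcodes among the retained cells, and no member barcode was shared. The protocol names 2 noses per genotype and does not tie them to libraries, so the spread between libraries, on which all p-values rest, may be partly technical.

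The meninges are the connective tissue layers around the brain: the dura on the outside, the arachnoid, and the pia against the basement membrane that covers the neural tissue. Over the forebrain they descend from the neural crest, as does most of the skeleton and connective tissue of the face. Forkhead and Zic transcription factors mark their progenitors. Meningeal cells lay down collagen IV and laminin, carry transporters of the blood to brain barrier, and secrete CXCL12, retinoic acid and bone morphogenetic proteins (BMPs). Of the gate markers, Slc6a13 encodes a transporter of the neurotransmitter GABA and of taurine, Trpm3 a cation channel, Lama1 the alpha chain of the early embryonic laminin, and Vtn the adhesion protein vitronectin.

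Collagen IV chains and Zic factors were among the genes that fell in the meninges-like cells of the mutants, and these genes lie in pairs that are read away from each other. Col4a1 (chromosome 8, 11198423 to 11312826, minus strand) and Col4a2 (chromosome 8, 11312805 to 11449287, plus strand) start 21 bases apart and are read in opposite directions. Zic1 (chromosome 9, 91358058 to 91365810, minus strand) and Zic4 (chromosome 9, 91362413 to 91389348, plus strand) overlap over 3398 bases on opposite strands in GENCODE M21, and how the counting treated strand is not given in the sources used here. Col4a5 and Col4a6 on the X chromosome form a further pair, with start sites 1343 bases apart. The promoters of the first 2 pairs are shown, as the closest pair and the pair of transcription factors, because both genes of each fell. Each is the RefSeq window of 300 bases on GRCm38.p6, from 250 bases before to 50 after the start site, 5′ to 3′ on the gene's own strand: chr8:11312777-11313076 (minus) for Col4a1, chr8:11312555-11312854 (plus) for Col4a2, chr9:91365719-91366018 (minus) for Zic1 and chr9:91368722-91369021 (plus) for Zic4. Capitals mark the GC box, GGGCGG on either strand.
Col4a1: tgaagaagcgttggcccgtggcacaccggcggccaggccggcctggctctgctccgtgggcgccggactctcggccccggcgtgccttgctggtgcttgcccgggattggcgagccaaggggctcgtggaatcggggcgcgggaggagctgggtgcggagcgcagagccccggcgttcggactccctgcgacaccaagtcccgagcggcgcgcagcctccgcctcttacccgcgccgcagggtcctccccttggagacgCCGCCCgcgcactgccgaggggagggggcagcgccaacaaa
Col4a2: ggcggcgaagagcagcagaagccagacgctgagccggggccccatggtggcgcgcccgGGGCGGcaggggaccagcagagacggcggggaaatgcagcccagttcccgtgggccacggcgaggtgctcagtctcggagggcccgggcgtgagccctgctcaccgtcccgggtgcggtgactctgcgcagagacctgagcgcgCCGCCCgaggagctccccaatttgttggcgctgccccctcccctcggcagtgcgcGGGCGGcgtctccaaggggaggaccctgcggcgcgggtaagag
Zic1: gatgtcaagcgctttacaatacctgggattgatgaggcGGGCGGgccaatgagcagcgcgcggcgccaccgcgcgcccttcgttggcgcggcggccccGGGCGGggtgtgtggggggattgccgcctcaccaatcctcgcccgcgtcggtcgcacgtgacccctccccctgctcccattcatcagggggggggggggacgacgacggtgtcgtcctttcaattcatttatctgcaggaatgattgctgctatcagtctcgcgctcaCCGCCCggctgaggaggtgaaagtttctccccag
Zic4: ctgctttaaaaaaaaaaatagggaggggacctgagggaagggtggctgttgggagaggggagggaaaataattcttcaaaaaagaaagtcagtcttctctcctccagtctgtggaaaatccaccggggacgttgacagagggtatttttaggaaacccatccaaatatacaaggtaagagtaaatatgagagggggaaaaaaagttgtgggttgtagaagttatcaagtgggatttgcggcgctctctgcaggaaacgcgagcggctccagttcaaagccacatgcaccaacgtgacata
The Col4a1 and Col4a2 windows share 78 bases, so that the GC box of Col4a1 is also in the Col4a2 window. GC boxes numbered 1 in the Col4a1 window, 3 in that of Col4a2, 3 in that of Zic1 and 0 in that of Zic4. Of 32851 windows of this length, 35.7% held a GC box. The letters GGAATG, the core bound by the TEAD partners of YAP and TAZ, occurred 1 time in the Zic1 window on either strand, 0 times in the other 3 windows, and in 14.7% of all windows. These are matches of letters and not measured sites.

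The gated cells were not of 1 kind, and their make-up differed between the libraries. In 22, 16, 21 and 10 members (control 1, control 2, mutant 1, mutant 2) Trpm3 and Lama1 were the only markers detected, and 13, 9, 12 and 4 of these had 1 UMI of each. That pattern made up 31.0% and 26.2% of members in the controls and 80.8% and 47.6% in the mutants. The other patterns, nearly all with Slc6a13, held 49, 45, 5 and 11 members. Slc6a13 together with Lama1 was seen in 39 and 31 control members, in 0 in mutant 1 (which allows a share of up to 0.1002% of retained cells) and in 2 in mutant 2. Slc6a13 without Lama1 was seen in 8, 9, 4 and 7 members. Cells with Slc6a13 and Lama1 were thus the most frequent pattern in the controls and nearly missing in both mutants, while cells with Slc6a13 but without Lama1 were few in every library.

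The gate genes themselves are given as a description, in CPM (a gene's UMIs scaled to a common total over all UMIs of the cells summed in a library). Slc6a13 was at 232.5, 143.9, 19.2 and 140.6 CPM over all members, Trpm3 at 869, 826, 354 and 953, Lama1 at 241, 306, 108 and 125, and Vtn at 499, 516, 26.9 and 72.9. The 4 markers together gave a median of 10 UMIs per member in both controls and 2 and 3 in the mutants. Genes detected in at least 20% of members were ranked by the smallest of their 4 library log2 ratios to other mesenchyme. This order favours genes that are even across the libraries. Beyond the gate genes, it was led by Nalcn, a sodium leak channel, the cystine transporter Slc7a11, Ranbp3l, Zic1 and Zic2. Rbfox1, Akap12, the metallothionein Mt2, Zic5, Mapk4, Slc1a3, Tspan13, Apoe, Xkr4 and Tfap2b were also among the leading 20. Nalcn was even across the libraries, at 51.05, 52.31, 49.99 and 57.29 CPM in members against 4.72 to 7.42 in other mesenchyme. Apoe, a lipid carrier, was at 272, 252, 188 and 255 CPM against 79.5 to 104.

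Trpm3 and Lama1 were also the 2 markers found outside the gate. Trpm3 had a UMI in 9.64% to 13.1% of other collagen-positive mesenchyme (median depth 5098 to 8279 UMIs) and Lama1 in 3.70% to 6.19%, whereas Slc6a13 was in at most 0.312% and Vtn in at most 0.825%. In macrophages, which should lack all 4 genes, Trpm3 had a UMI in 1.82%, 10.3%, 8.33% and 0% of cells at median depths of 7490 to 10041 UMIs. Macrophages with a Lama1 or Vtn UMI numbered 0 in every library.

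Genes that the gate did not read followed the marker pattern. In members of the other patterns, Zic1 stood at 315 and 349 CPM in the controls and at 104 and 81.1 in the mutants. In members with Trpm3 and Lama1 alone it stood at 17.2, 48.3, 27.1 and 0, close to the 11.7, 26.9, 7.71 and 11.4 of other mesenchyme. Tbx18, a T-box factor of pericytes and meningeal progenitors, was at 330, 287, 26.0 and 48.7 CPM in the other patterns and at 8.60, 18.1, 9.03 and 43.6 in the Trpm3 and Lama1 cells. So Zic1 and Tbx18 were high in the control members with Slc6a13 or Vtn, and in no library did the cells with Trpm3 and Lama1 alone reach those levels. A Zic1 UMI was found in 46 of 71, 47 of 61, 4 of 26 and 6 of 21 members. Members with a Tbx18 UMI numbered 43, 40, 2 and 5. These 2 further markers thus bore out the label in most control members and in a minority of mutant members. The make-up by marker pattern moved with the genotype, and 21 of 26 and 10 of 21 mutant members had Trpm3 and Lama1 alone. The changes over all members are therefore read beside the levels within the 2 patterns for the genes the results turn on, and how much of each change the make-up accounts for was not tested.

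**Figure D1:**
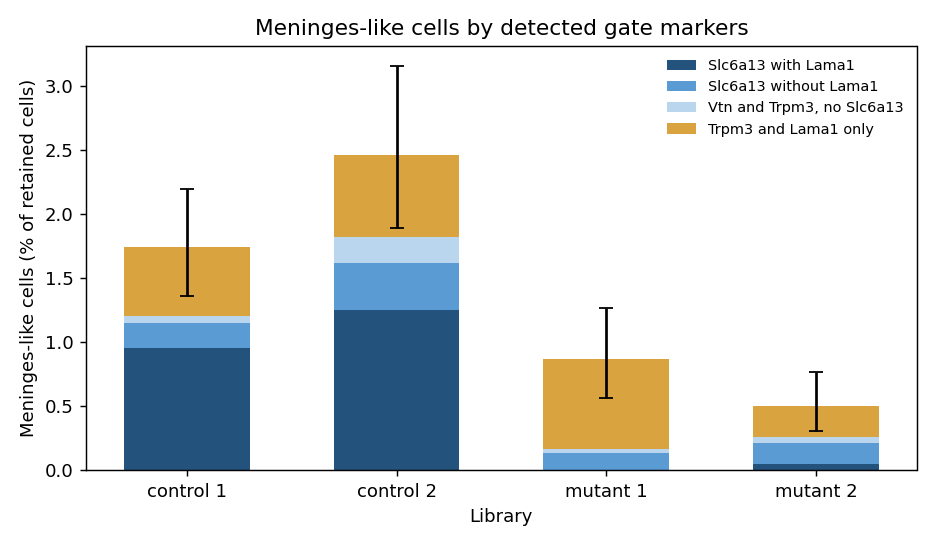
Meninges-like cells as a percentage of retained cells in each library (bars, stacked by which gate markers were detected) with exact 95% binomial intervals of the whole share, which cover counting error only. The blue patterns with Slc6a13 or Vtn are tall in both controls and short in both mutants, while the cells in ochre with Trpm3 and Lama1 alone range from 0.238% to 0.701% with the groups overlapping.

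The first question the design asks is whether the mutant noses held fewer of these cells. Members made up 1.74% of retained cells (exact 95% binomial interval 1.36 to 2.19) in control 1, 2.47% (1.89 to 3.16) in control 2, 0.868% (0.568 to 1.27) in mutant 1 and 0.501% (0.310 to 0.764) in mutant 2. Both mutants were below both controls, with means of 2.10% ± 0.512 (SD, n = 2) against 0.684% ± 0.260 (SD, n = 2), a ratio of 3.07. An exact two-sided permutation test gave p = 0.33, the smallest that 2 against 2 libraries allow. In edgeR's quasi-likelihood test of cell numbers over 8 gated classes, the log2 ratio was -1.63 ± 0.39 (SE). Its Benjamini-Hochberg adjusted p was 0.094 by edgeR, which did not pass. The adjusted p of the other 7 classes was between 0.761 and 0.905. Fewer such cells in the nose, fewer captured from it and less marker RNA per cell cannot be told apart in these shares.

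The share depended on how strict the gate was. With at least 3 markers, 44, 36, 1 and 4 cells were left, and the log2 ratio was -4.11. With Slc6a13 and Trpm3 both required it was -1.95. With every cell thinned to 3000 UMIs before gating, so that depth was equal, 52, 30, 7 and 10 cells passed of those deep enough, 172 to 543 cells per library being too shallow. The shares were then 1.37%, 1.30%, 0.251% and 0.274%, and the log2 ratio was -2.33. These filters count marker UMIs, and Vtn and Lama1 stood lower in the mutant members, Vtn also in other mesenchyme, so that fewer cells and less marker RNA per cell cannot be told apart and no p is given for them. By contrast, cells with Trpm3 and Lama1 alone made up 0.540% and 0.647% of retained cells for the 2 controls, and 0.701% and 0.238% for the 2 mutants, which overlap. The other patterns made up 1.20% and 1.82% in the controls against 0.167% and 0.262% in the mutants, values given without a test because these subsets were formed after the data were seen.

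At the edge of the gate, cells with exactly 1 marker in the same collagen-positive mesenchyme numbered 549, 320, 390 and 470, and carried Zic1 at 10.2, 39.9, 9.99 and 12.6 CPM. Members with exactly 2 markers numbered 27, 25, 25 and 17. Cells with Lama1 and Vtn but neither Slc6a13 nor Trpm3, which the gate leaves out, numbered 2, 5, 0 and 1. In the controls they carried Zic1 at 397 and 264 CPM. A further 12, 13, 2 and 9 cells met the marker rule but had a Cdh5 UMI.

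Over all members, 55 of 6735 genes tested changed between mutants and controls (edgeR quasi-likelihood, adjusted p under 0.05), 0.817% of the genes tested. Of these, 24 were higher in the mutants (0.356%) and 31 lower (0.46%), and Vtn, a gate gene, was among the lower ones and is only described. In 40.6% of the genes tested the CPM of the 2 groups did not overlap, and they did not in any of the 55. Leaving out control 1 ended all 55 calls by edgeR (0 called, 369 genes at an unadjusted p under 0.05), although the log2 change of Col4a1 was then -2.55 and that of Cntn4 4.41. Without control 2 there were 136 calls, which held 50 of the 55, without mutant 1 there were 95, and without mutant 2 there were 272. Within the members with Trpm3 and Lama1 alone, an alternative added after seeing the data, 5 genes were called of 3960 tested, all higher and all among the 55.

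Among the meningeal transcription factors 3 fell, Zic1, Zic4 and Tbx18, where 0.46% of all genes tested fell. Of the 9 genes on the list 7 were tested, none rose, and all 7 changes had a negative sign, with a median log2 change of -1.28 beside 0.01 over all genes tested. In other mesenchyme, where these genes are low, none of the list passed and its median was -1.04. Zic1, a zinc finger factor of meningeal and dorsal neural progenitors, was at 217, 256, 38.5 and 52.1 CPM in control 1, control 2, mutant 1 and mutant 2. Both mutants were far below both controls, a log2 change of -2.42 ± 0.31 (SE, adjusted p = 0.020 by edgeR). Its neighbour Zic4 was at 69.5, 74.7, 7.69 and 5.21 CPM, and fell by 3.40 ± 0.54 on the log2 scale (adjusted p = 0.029 by edgeR), with 2 and 1 UMIs in the mutants. Tbx18 was at 224, 204, 11.5 and 46.9 CPM, and fell by 2.99 ± 0.44 on the log2 scale (adjusted p = 0.023 by edgeR). All 3 were also lower within the members of the other patterns, where Zic4 stood at 104, 94.7, 0 and 8.11 CPM.

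The remaining factors of that list did not pass. Foxc1, a forkhead factor needed for the meninges of the forebrain, was at 132, 153, 34.6 and 135 CPM, and Zic2 at 118, 140, 23.1 and 109. For both genes mutant 2 was within the controls or just below them, and mutant 1 stood apart, the library with 21 of 26 members of the Trpm3 and Lama1 pattern. Within the members of the other patterns Foxc1 was at 184, 214, 130 and 195 CPM, and mutant 2 lay between the controls.

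Over all members, basement membrane genes fell in the mutants at 6 of the 15 tested and none rose. Among all genes tested 0.46% fell. Of the 15, 13 were negative, and the median log2 change was -1.14 beside 0.01 over all genes (-0.18 with none called in other mesenchyme). In members with Trpm3 and Lama1 alone the summed list was at 1811, 1949, 2491 and 1411 CPM, and the groups overlapped. In the other patterns it was at 4956, 5726, 2498 and 2451. Neither sum was tested. Collagen IV chains were 4 of the 6. Col4a1, the most abundant of the 4, was at 691, 1031, 138 and 229 CPM, a log2 change of -2.27 ± 0.29 (adjusted p = 0.020 by edgeR). Its head-to-head partner Col4a2 was at 420, 613, 115 and 198, and its log2 change was -1.76 ± 0.30 (adjusted p = 0.035 by edgeR). In other mesenchyme Col4a1 was between 107 and 124 CPM in the 4 libraries, below all 4 member values.

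The X-linked chains followed. Col4a5 stood at 267, 187, 42.3 and 41.7 CPM, a log2 change of -2.44 ± 0.33 (adjusted p = 0.020 by edgeR). Col4a6 had 68 and 43 UMIs in control members against 2 and 0 in mutant members (adjusted p = 0.025 by edgeR). Col18a1, whose collagen carries heparan sulfate in vessel and pial basement membranes, had 127 and 96 UMIs against 1 and 6 (adjusted p = 0.023 by edgeR). The laminin chain Lamc3 had 50 and 36 UMIs against 3 and 1 (adjusted p = 0.041 by edgeR). Of the control UMIs of Lamc3, 48 and 32 were in members with both Slc6a13 and Lama1. In members with Slc6a13 and without Lama1, Lamc3 stood at 18.3, 15.9, 39.2 and 15.1 CPM, and the groups overlapped. Col18a1 overlapped there too, at 27.5, 159, 39.2 and 60.5. Col4a5, at 110, 254.5, 0 and 15.1, and Col4a6, at 45.8, 79.5, 0 and 0, did not, on at most 1 UMI per mutant library.

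Other basement membrane genes did not change by the test. Sparc, a collagen-binding matrix protein, was at 913, 1031, 1161 and 813 CPM, and Lama4 at 213, 245, 300 and 135, with mutants on both sides of the controls. Nid2, which links laminin to collagen IV, was at 210, 170, 34.6 and 78.1 and did not pass (adjusted p = 0.063 by edgeR). In members with Trpm3 and Lama1 alone, Col4a1 stood at 185, 90.5, 140 and 116 CPM, and the groups overlapped. In the other patterns it stood at 939 and 1453 in the controls, 130 in mutant 1 and 292 in mutant 2, but these patterns are mostly Slc6a13 with Lama1 in the controls and Slc6a13 without Lama1 in the mutants. In the 8, 9, 4 and 7 members with Slc6a13 and without Lama1, Col4a1 stood at 238, 907, 157 and 257 CPM, and the groups overlapped.

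**Figure D2:**
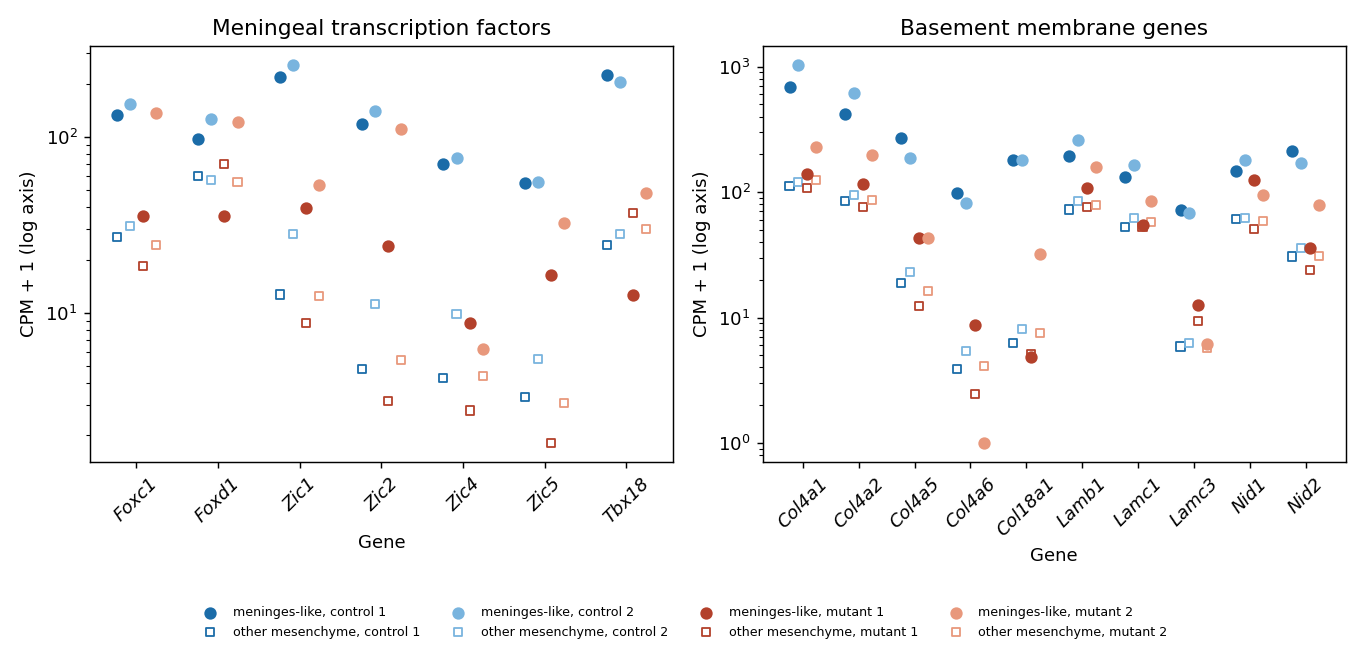
CPM plus 1 (log axis) of meningeal transcription factors (left) and basement membrane genes (right) in each library, with filled circles for all meninges-like cells and open squares for other collagen-positive mesenchyme. Zic1, Tbx18 and the collagen IV chains are lower in both mutants than in both controls, with Zic1 and Col4a5 in the mutant members still above other mesenchyme, while Foxc1 in mutant 2 lies between the controls and Zic2 just below them.

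Among 26 secreted signals 17 were tested, 2 fell and 1 rose, with a median log2 change of -0.06. Of all genes tested, 0.46% fell and 0.356% rose. Cxcl12, the chemokine with which meninges guide migrating neurons and vessels, was at 659, 712, 269 and 214 CPM, and fell by 1.51 ± 0.21 on the log2 scale (adjusted p = 0.020 by edgeR). Bmp6 was at 285, 161, 38.5 and 62.5, and fell by 2.20 ± 0.39 (adjusted p = 0.041 by edgeR). In members with Trpm3 and Lama1 alone, Cxcl12 was at 94.6, 121, 248 and 116 CPM (log2 change 0.88, adjusted p = 0.80 by edgeR). Bmp6 was there at 25.8, 12.1, 45.1 and 87.3, on 6, 2, 10 and 6 UMIs. In the other patterns Cxcl12 was at 937, 977, 390 and 268 and Bmp6 at 412.5, 227, 0 and 48.7. Bmp7 was at 157, 136, 34.6 and 57.3 and missed the threshold (adjusted p = 0.059 by edgeR). The growth factors Ptn, at 3508, 2786, 1338 and 2953 CPM, and Mdk, at 1208, 1237, 1096 and 1547, did not pass. Sfrp2, a Wnt antagonist, was the member that rose, from 72.3 and 80.3 to 442 and 276 CPM (log2 change 2.23 ± 0.29, adjusted p = 0.020 by edgeR). Sfrp2 was at 393 to 565 CPM in other mesenchyme, and mutant 1 was within that range while mutant 2 lay between it and the control members.

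Of 18 barrier transporters 7 were tested and 1 fell, where 0.46% of all genes tested fell. That gene, Slc1a3, a glutamate transporter, was at 735, 742, 300 and 323 CPM, a log2 change of -1.26 ± 0.19 (adjusted p = 0.023 by edgeR). Its change was 0.35 (adjusted p = 0.97 by edgeR) within the members with Trpm3 and Lama1 alone. Slc7a11, the cystine transporter, was at 126, 101, 26.9 and 266 and the organic anion transporter Slc22a6 at 180, 76.6, 7.69 and 31.3, and neither passed (adjusted p = 0.95 and 0.090 by edgeR).

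None of the 3 pial, 4 arachnoid and 3 dural genes tested passed, where 0.817% of all genes tested did. Their median log2 changes were -0.49, -0.37 and 1.19. S100a6, a calcium-binding protein of pial cells, was at 1034, 1091, 558 and 1172 CPM in all members. In the other patterns it was at 1345, 1532, 755 and 1688, and mutant 2 was the highest of the 4 libraries. Cldn11, a tight junction protein of the arachnoid barrier, was at 197, 300, 156 and 317 CPM there, and Aldh1a2, the enzyme that makes retinoic acid in the meninges, at 99.4, 103, 52.0 and 122. These values rest on 5 members in mutant 1 and 11 in mutant 2, and were not tested. Of 10 retinoic acid genes tested none passed. In mutant 2, S100a6, Cldn11 and Aldh1a2 were thus above both controls and Foxc1 between them, whereas in mutant 1 all 4 were below both controls. Zic1, Tbx18 and Col4a1 were below both controls in both mutants over these pooled patterns. In members with Slc6a13 and without Lama1, Zic1 was at 220.0, 509, 78.5 and 75.6 CPM and Tbx18 at 101, 509, 39.2 and 30.2, again without overlap, on 5 UMIs or fewer per mutant library. Col4a1 and S100a6 overlapped there, S100a6 being at 302.5, 1352, 353 and 1240.

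**Figure D3:**
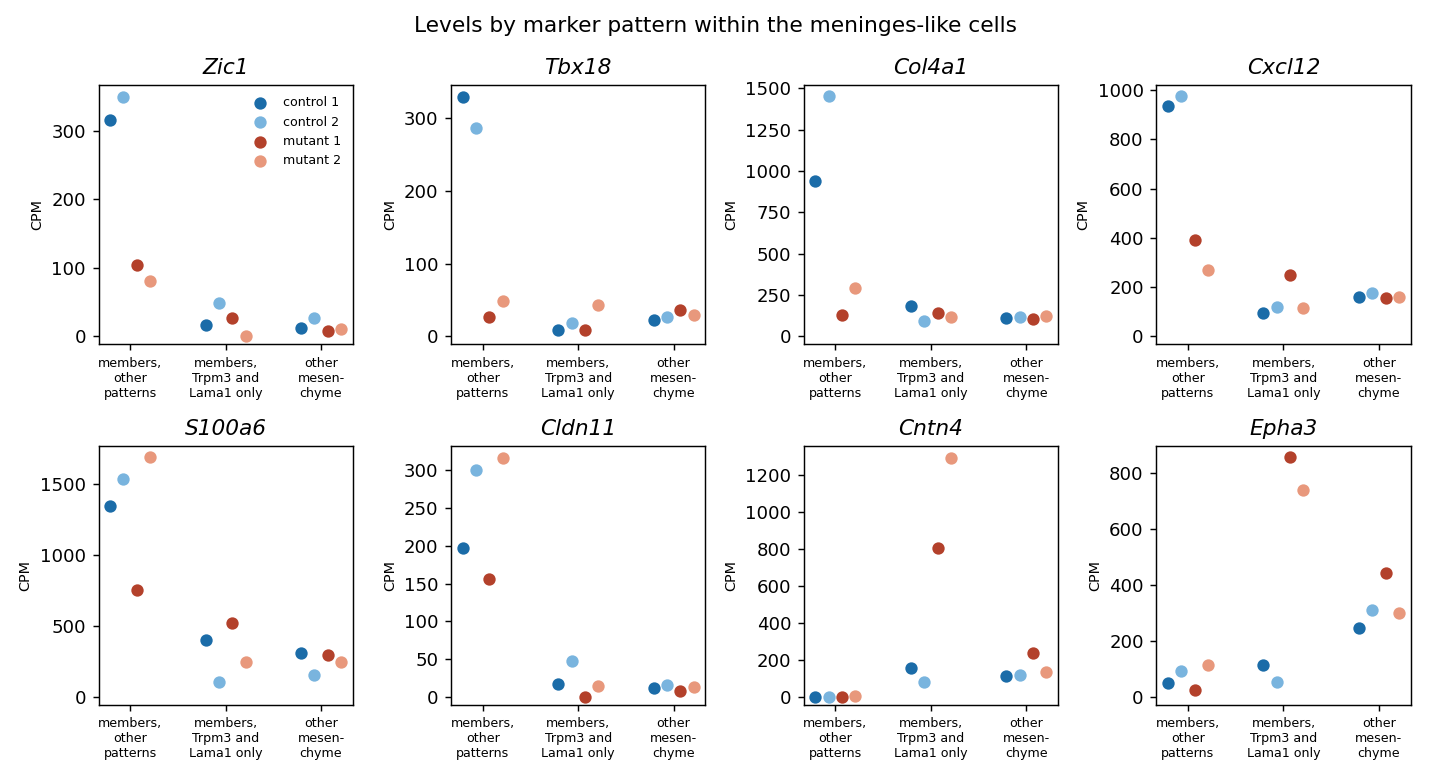
CPM (linear axes, each panel its own scale) of 8 genes in members of the other marker patterns, members with Trpm3 and Lama1 alone, and other mesenchyme, 1 point per library. Zic1, Tbx18, Col4a1 and Cxcl12 are high in the control members of the other patterns alone, S100a6 and Cldn11 are as high in those of mutant 2, and Cntn4 and Epha3 are high in the mutant cells with Trpm3 and Lama1 alone.

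Among the lower genes outside these lists, Flrt2, a guidance molecule of the cell surface, was at 215.5, 226, 34.6 and 57.3 CPM. The fatty acid carrier Fabp5 was at 654, 652, 258 and 234, a log2 change of -1.42 ± 0.20 (adjusted p = 0.020 by edgeR). The potassium channel Kcnk2 was at 183, 196, 26.9 and 46.9. The adhesion genes Ctnna2, at 353, 284, 96.1 and 78.1, and Ntm, at 388.5, 443, 92.3 and 151, and the scaffold gene Frmpd4, at 186, 146, 30.8 and 20.8, fell as well (adjusted p between 0.020 and 0.023 by edgeR). In none of these 6 did the groups overlap, which held for all 55 called genes and for 40.6% of all genes tested. The long non-coding RNA Halr1, named after its values were seen, had 30 and 29 UMIs in control members and 0 in both mutants. Against a floor of 3 counts over both mutants it was at least 7.29-fold lower.

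The genes that rose with the lowest p were Cntn4 and Cntn6. Cntn4, a neural adhesion protein of the contactin family, was at 51.1 and 26.2 CPM in control members and at 685 and 469 in mutant members (log2 change 3.85 ± 0.33, adjusted p = 0.0053 by edgeR). Of its UMIs in mutant 1, all 178 were in 11 cells with Trpm3 and Lama1 alone. Cntn6, of the same family, had 2, 4, 44 and 24 UMIs (adjusted p = 0.0060 by edgeR), of which 1 cell held 23 of the 24 in mutant 2. Epha3, an ephrin receptor, was at 72.3, 82.2, 735 and 339 CPM (log2 change 2.80 ± 0.36, adjusted p = 0.020 by edgeR). The transcription factor genes Mecom and Lhx8 rose with 24 and 13 and with 32 and 15 UMIs in the mutants against at most 3 and 6 in a control (adjusted p = 0.020 for both by edgeR). Lhx8 is known from oral and tooth mesenchyme.

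Runx2, which directs osteoblast formation, was at 113, 131, 496 and 323 CPM, a log2 change of 1.75 ± 0.27 (adjusted p = 0.025 by edgeR). The summed osteoblast list was at 152 and 135 CPM in control members and 811 and 380 in mutant members, and at 576 to 1426 in other mesenchyme. Its part in the changes was not tested. Mef2c, Adgrl2, Cdh12, Hs3st5 and Cadm2 completed the leading genes that rose, with log2 changes from 1.51 for Mef2c to 3.02 for Cadm2.

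Few cells set these values. Members with at least 3 of the 6 leading higher genes (Cntn4, Cntn6, Mecom, Epha3, Sfrp2 and Lhx8) numbered 6 of 71, 2 of 61, 12 of 26 and 5 of 21, and in the mutants all of them had Trpm3 and Lama1 alone. In other mesenchyme the share of such cells was 12.01%, 13.7%, 21.2% and 9.82%, with mutants on both sides of the controls. Within the Trpm3 and Lama1 cells alone, Cntn4 was at 155, 84.5, 803 and 1294 CPM and Epha3 at 116, 54.3, 857 and 742. There Cntn4 changed by 3.04 and Epha3 by 3.17 on the log2 scale (adjusted p = 0.017 for both by edgeR), and Cntn6, Mecom and Cadm2 also passed. Mecom, with 0 UMIs in both controls there, and Cntn6, with 2 and 4, reached the test through their mutant counts. Single cells weighed heavily. In mutant 1, 1 member held 16 of 24 Mecom UMIs and 1 held 55 of 191 Epha3 UMIs. In mutant 2, 1 member held 13 of 16 Cadm2 UMIs and 1 held 45 of 90 Cntn4 UMIs. The Trpm3 and Lama1 cells are part of the members on which the genes were called, and hold most of the mutant UMIs of Cntn4, so this is no independent test. Of the genes that fell, 14 could be tested there, 8 were negative, none passed, and their median was -0.24. Over all members the same 14 changed by -2.31 (Flrt2) to -1.26 (Slc1a3) on the log2 scale. Within the Trpm3 and Lama1 cells Col4a2, at 0.36, was among those with a positive sign.

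Other collagen-positive mesenchyme, 3055, 1940, 2243 and 3189 cells, served as the background for the same contrast. None of 16231 genes was called there by edgeR (0 genes, 0%). At an unadjusted p under 0.05 there were 1150, and DESeq2 called 39. Leaving out control 1 gave 682 calls. The genes called in members had median log2 changes there of -0.09 for those lower and 0.14 for those higher. The difference between the 2 classes was tested in 1 model with the library as a block. It called 314 of 15094 genes (2.08%), of which 186 were more positive in members. Of lists without a call in members alone, 1 of 3 pial genes passed as more negative and 2 of 5 dural genes as more positive. Of 15 retinoic acid genes 2 passed as more negative. Of 24 face mesenchyme factors 3 passed as more positive and 1 as more negative. The test called 30 genes without the library term. Of the 54 genes called in members other than Vtn, 52 also passed this test of the difference. Zic4 (adjusted p = 0.28) and Ranbp3l (adjusted p = 0.23) did not, by edgeR. The 54 were chosen by their change in these same members, so the 52 are no independent support. The differing make-up of the members enters this test as well. For Col4a1 the changes were -2.27 in members and -0.04 in other mesenchyme. For Tbx18 they were -2.99 and 0.34, with an interaction of -3.44 ± 0.41 (adjusted p = 1.8e-13 by edgeR). For Zic1 they were -2.42 and -1.04. Vtn, a gate gene, had changes of -3.43 and -3.81, and in mural cells, the vessel-wall cells gated on Rgs5, it was detected in 27 of 50, 23 of 27, 6 of 41 and 7 of 35 cells.

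**Figure D4:**
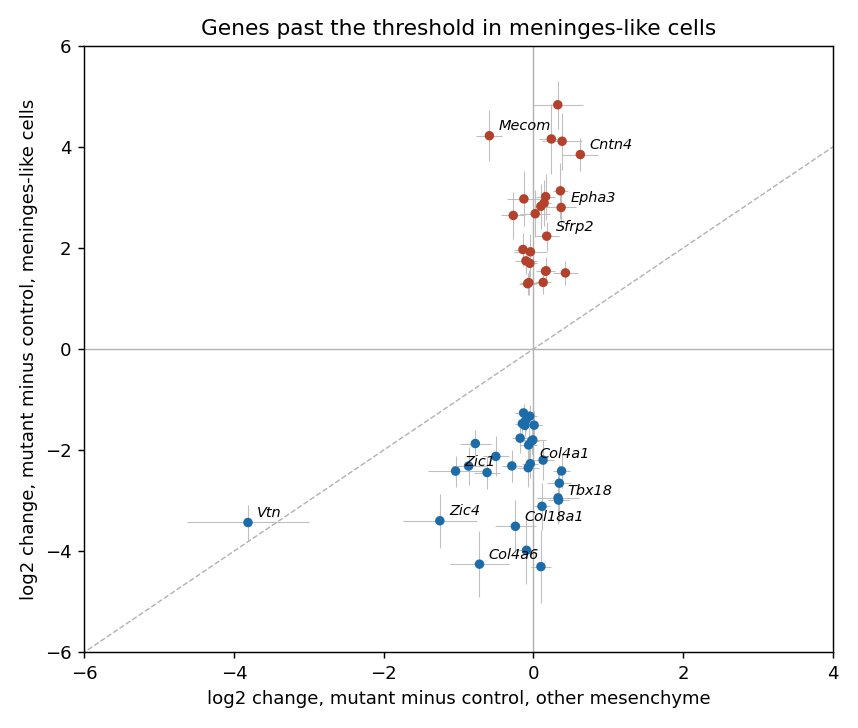
log2 change of mutants against controls in meninges-like cells (vertical) and in other collagen-positive mesenchyme (horizontal) for genes called in the former, without Halr1, which had 0 UMIs in both mutants. Bars are standard errors and the dashed line marks equal changes; Vtn lies near that line, and the other points lie between -1.25 (Zic4) and 0.63 (Cntn4) on the horizontal axis.

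The targeted genes did not differ by the test. Yap1 was at 68.1, 82.2, 49.99 and 93.8 CPM in members and Wwtr1, which encodes TAZ, at 113, 207, 219 and 141 (adjusted p = 0.97 and 0.93 by edgeR). The tags come from the 3-prime end, and the position of the floxed exons is not given in the sources used here, so these levels check no deletion. Of the neighbours of Sox10 on its chromosome 3 were tested, all 3 changes were positive and none passed. Eif3l was at 80.8, 72.9, 150 and 271 and Polr2f at 174, 230, 350 and 391 CPM (adjusted p = 0.094 and 0.16 by edgeR). Eif3l passed without a filter on low counts (adjusted p = 0.0024), with a replicate block (0.031) and without mutant 1 (0.0017), by edgeR. In other mesenchyme it was at 89.1, 85.3, 178 and 186. None of 14 YAP and TAZ target genes tested passed (median log2 change 0.16). Of all genes tested 0.817% passed, a share at which none is likely in a list this short. Ccn1, the best known of them, was at 139, 292, 212 and 234 CPM. None of 16 face mesenchyme factors passed (median 0.62), with Prrx1 at 277, 245, 546 and 271 and Twist1 at 245, 297, 396 and 297.

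Markers of endothelial, epithelial, macrophage and choroid plexus cells were low in members. The summed endothelial list was at 23.1 to 99.0 CPM, the epithelial list at 3.74 to 21.3, the macrophage list at 0 to 34.6, the choroid plexus list at 1.42 to 36.5 and the glial list at 23.1 to 136. Smooth muscle genes were uneven, at 45.4, 301, 796 and 20.8. The brain vessel list was at 549, 661, 469 and 687.5 CPM, and the neuron list at 204, 269, 231 and 167. In other mesenchyme these 2 lists were at 565 to 664 and 275 to 308. Pericyte genes summed to 119, 151, 99.99 and 104 CPM in members and chondrocyte genes to 96.4, 37.4, 169 and 135. Cdh5 and Epcam were 0 by the gate. No gene of the endothelial, epithelial, macrophage or choroid plexus lists was abundant enough to be tested in members alone, and 1 of the glial list and 2 of the smooth muscle list were tested and did not pass. None of the 2 pericyte, 3 neuron, 3 brain vessel and 2 chondrocyte genes tested passed, nor did any gene of fibrillar matrix (16 of 16 tested, median log2 change 0.25) or the stress of dissociation (13 of 15 tested, median 0.21). Among all genes tested 0.817% passed. The test of the difference from other mesenchyme called 2.08% of genes. In it, 6 of 16 fibrillar matrix genes passed as more positive in members and 2 as more negative. As more positive, 3 of 15 stress, 2 of 6 smooth muscle, 1 of 5 chondrocyte and 1 of 1 choroid plexus genes passed. Of 6 brain vessel genes 1 passed as more negative. The endothelial, epithelial, macrophage, glial, pericyte and neuron lists had 0 calls. The part of any of these lists in the changes was not tested.

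At equal depth the share of cycling members was higher in both mutants, in a test that cannot pass with 2 libraries a group. With cells thinned to 3000 UMIs, 36.2% and 35.6% of control members and 56.0% and 42.9% of mutant members had at least 3 UMIs of cell cycle genes, a difference of 13.5 points (exact two-sided permutation test, p = 0.33, the smallest possible). Unthinned shares were 63.4%, 55.7%, 76.9% and 57.1%, and the groups overlapped. In other mesenchyme the thinned shares were 33.2%, 33.8%, 31.3% and 32.6%. None of 24 cell cycle genes passed in the members, where 0.817% of all genes tested did. In the test of the difference from other mesenchyme, 3 of 26 passed as more positive in members.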

How the data were processed

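Whole noses were dissociated with papain and collagenase and frozen before 10x 3-prime v3.1 library preparation, per the labels' protocols, which name 2 sequencing providers without saying which library each handled, so that a batch could not be separated. A further sample that they mention is not analysed here. The files deposited by the authors are matrices of UMI counts, not normalized, made with Cell Ranger, version 8.0.1 per the file headers and 4 per the submitters' processing notes, which also name mm10. Of 32285 features, 32158 matched GENCODE M21 (GRCm38, the same assembly).

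The members, gene lists and tests were chosen with earlier results of these data known. Counts were summed per library over members and over other mesenchyme (the same collagen, Epcam, Cdh5 and Rgs5 limits), and tested with edgeR 4.0.16 (R 4.3.3; TMM, filterByExpr, quasi-likelihood, Benjamini-Hochberg at 0.05). A standard error was taken from the size of the log2 change over the root of its F value. The exact binomial intervals and upper limits (3 counts for a count of 0) cover counting error only. Doublets stayed in: Scrublet (scanpy 1.11.5) marked 0 to 3 cells per library by its own threshold and had not worked, and 0.8% per 1000 barcodes by score were left out as an alternative. DESeq2 1.42.0 was a further alternative. Named genes were the 12 with the lowest p in each direction, the 4 most abundant and all called members of each list, the gate genes, Yap1 and Wwtr1, the 20 identity genes and the 8 lowest p of the interaction. On simulated counts with 200 genes changed by a fold of 4, the test recovered 72.5% of them in members (6698 genes) with 5 false calls, and 97% in other mesenchyme (16233 genes). The simulation gave all libraries the same mean profile and all genes a common dispersion. It held no difference in marker pattern, so it does not cover calls that the make-up of the members could give. Same-numbered libraries did not deviate together (correlation 0.000326 in members, -0.0622 in other mesenchyme), so the replicate numbers were treated as names. Every pair of libraries differed in the summed counts of at least 24001 genes. A result among the identity genes is not reported here.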

Additional observations from a re-analysis of the deposited data

Results flagged for a closer look

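For 8 genes the mutant against control change differed between meninges-like cells and other collagen-positive mesenchyme by the test of that difference (edgeR, library as a block), given as the log2 change in members minus that in the other mesenchyme. It was 3.17 for Cntn4, 2.28 for Epha3, 2.98 for Cntn5 and 1.96 for Sfrp2, all more positive in members. It was -2.29 for Col4a1, -3.44 for Tbx18 and -2.99 for Sparcl1, a matrix protein whose level in members was 364, 420, 30.8 and 151 CPM (adjusted p = 0.076 within members by edgeR). The value for Ibsp, a bone matrix protein, was 3.85, and rests on 39 UMIs in mutant 1 and 10 in control 1, with 0 in the members of the other 2 libraries. The 8 are those with the lowest p of 314 that passed.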

How the results depend on the processing

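The share of meninges-like cells stayed lower in mutants under all 11 alternatives, with log2 ratios from -1.26 to -2.05 when 1 library was left out. It was -4.11 with at least 3 markers, -1.95 with Slc6a13 and Trpm3 both required and -2.33 after thinning, settings that read the gate markers themselves, so that cell number and marker level cannot be told apart in them. With a replicate block it was -1.63 and passed the threshold. The 55 genes called in members became 334 without a filter on low counts, 31 with stricter cells (at least 1000 genes, at most 5% mitochondrial UMIs), 165 with the replicate block, 5 in the members with Trpm3 and Lama1 alone, and 0 to 272 when 1 library was left out, 0 being the fit without control 1. DESeq2 called 53. In other mesenchyme DESeq2 called 39 genes, 341 were called without a filter, and leaving out 1 library gave 2 to 682. The interaction called 30 genes without the library term, 55 with a replicate block in place of the library, and 129 to 441 with 1 library left out. Cycling differed by 6.95 to 20.09 points with 1 library left out. Single genes without a call changed sign (Yap1 0.0038 without control 2 and 0.28 without mutant 1, Wwtr1 -0.23 without control 1 and -0.22 without mutant 1). With 1 library left out, Yap1 ranged from -0.60 (without mutant 2) to 0.28 and Wwtr1 from -0.23 to 0.64. Yap1 was lower still, at -1.24, within the members with Trpm3 and Lama1 alone, where Wwtr1 was 0.53, and neither passed. Called genes changed sign only within those same members (Cxcl12 0.88, Ntm 0.33, Slc1a3 0.35, Col4a2 0.36, Arhgap29 0.55 and March6 0.61, none past the threshold there). The cause was not tested. The gate of at least 3 markers left under 10 cells per mutant library, so genes were not tested there. Depth limits the mutants most: 26 and 21 cells with 260031 and 191998 UMIs stand against 71 and 61 cells with 705234 and 535246.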
